A study of Mus musculus with 9 samples.

Results

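Contactins, other adhesion molecules of the immunoglobulin superfamily and a contactin-associated protein were followed in 9 libraries of sorted mouse brain cells. The genes were chosen by symbol, with earlier results of these data known. They were the contactins Cntn1 and Cntn2, the contactin-associated protein Cntnap2 and the neural cell adhesion molecules Ncam1 and Ncam2. The others were the L1 family genes L1cam, Nrcam, Nfasc and Chl1, and Alcam. Of these 10 genes, 9 had a row among the 18329 genes of the deposited table, and Cntn2 was not analysed here. All 9 passed the filter of at least 1 CPM, a gene's reads scaled to a fixed library total, in at least 3 libraries, which kept 16143 genes. L1cam was the only one of them below 1 CPM in any library, and it reached 1 CPM in 1 of the 3 CD133+ libraries.

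The cells came from the TVZ, the zone lining the third ventricle, of untreated mice at postnatal day 1. All mice carried Nestin-CFPnuc, a cyan fluorescent protein (CFP) reporter driven by the promoter of Nestin, an intermediate filament gene of neural progenitors, on a C57/BL6 background. Cells were sorted by CFP and by CD133, the surface protein prominin 1, into 3 groups of 3 libraries: CD133+, Nestin+, and CD133+Nestin+. The reporter reads promoter activity rather than Nestin protein, and the labels do not state whether each single-marker population lacked the other marker. Each group has sorts numbered 1 to 3, the number being also the label's passage number. The labels do not tie the libraries to different animals or cultures, and the spread behind each p-value may therefore be technical.

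Immunoglobulin adhesion molecules sit in the plasma membrane and bind partners on neighbouring cells, on the same cell or in the extracellular matrix. Contactins are held to the membrane by a lipid anchor and signal through partners such as contactin-associated proteins and the receptor phosphatase Ptprz1, whereas the L1 family spans the membrane and ties it to the spectrin skeleton through ankyrins. In the developing brain these molecules steer axon growth, cell migration and the contact between axons and the glia that myelinate them, and NCAM on immature neural cells carries polysialic acid, which loosens adhesion.

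The promoters of 4 of these genes are printed because they belong to the 3 members with the highest Nestin+ differences on the log2 scale (Cntn1, Nfasc and Chl1) and to the L1 family gene with the densest CG in this window (Nrcam). Each runs 5′ to 3′ on the gene's strand over 300 bases, of which the last 50 follow the transcript start, and the capitals mark every CG, the pair of letters at which DNA is methylated in mammals. They were taken from RefSeq on GRCm38.p6: Cntn1 from chr15:92050915-92051214 (+ strand), Nfasc from chr1:132707277-132707576 (- strand), Chl1 from chr6:103510626-103510925 (+ strand) and Nrcam from chr12:44328635-44328934 (+ strand).
Cntn1: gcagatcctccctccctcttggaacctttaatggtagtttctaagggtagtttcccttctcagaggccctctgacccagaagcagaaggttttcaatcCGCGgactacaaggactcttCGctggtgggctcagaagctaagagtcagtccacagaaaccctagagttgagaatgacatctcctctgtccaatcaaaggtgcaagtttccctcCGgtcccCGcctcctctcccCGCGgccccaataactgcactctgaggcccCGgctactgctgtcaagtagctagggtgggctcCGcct
Nfasc: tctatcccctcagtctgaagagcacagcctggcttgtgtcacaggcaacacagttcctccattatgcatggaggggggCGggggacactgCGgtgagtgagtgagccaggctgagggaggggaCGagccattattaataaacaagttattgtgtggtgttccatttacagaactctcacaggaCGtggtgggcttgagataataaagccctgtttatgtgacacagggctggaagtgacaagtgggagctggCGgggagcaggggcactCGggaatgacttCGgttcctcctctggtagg
Chl1: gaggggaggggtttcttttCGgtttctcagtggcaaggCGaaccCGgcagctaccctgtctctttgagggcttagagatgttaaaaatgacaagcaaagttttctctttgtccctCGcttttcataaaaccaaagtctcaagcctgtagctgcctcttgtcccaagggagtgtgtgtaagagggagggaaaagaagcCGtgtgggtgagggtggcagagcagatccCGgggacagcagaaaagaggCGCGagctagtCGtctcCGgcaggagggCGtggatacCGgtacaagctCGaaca
Nrcam: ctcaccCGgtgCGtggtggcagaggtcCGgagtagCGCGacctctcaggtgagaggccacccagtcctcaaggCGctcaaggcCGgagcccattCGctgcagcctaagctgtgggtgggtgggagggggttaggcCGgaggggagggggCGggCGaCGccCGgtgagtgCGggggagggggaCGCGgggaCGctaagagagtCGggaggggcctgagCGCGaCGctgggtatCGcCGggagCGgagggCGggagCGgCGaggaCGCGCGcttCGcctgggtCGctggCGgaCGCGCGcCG
CG, which reads the same on both strands, occurred 9 times in the Cntn1 window, 7 times in that of Nfasc, 13 times in that of Chl1 and 37 times in that of Nrcam. Over all 32851 promoters of this length the median was 7, and 94.6% held at least 1 CG. At least as many CG as in the Nrcam window were found in 5.58% of promoters, and as many as in the Cntn1 window in 45.8%. Of the other members, Ncam2 had 41, Alcam 25, L1cam 22 and Cntnap2 14, and Ncam1 had no match in the promoter table. Cntn1, Cntnap2, L1cam and Nfasc have further starts in that table, at which the Cntn1 windows held 5 and 4 CG, those of Cntnap2 and Nfasc 3 each, and that of L1cam 25. These counts describe the letters of the windows and no methylation was measured. The Nfasc window lies inside the GENCODE M21 span of its gene, whose 5′ end is at 132741797. The L1cam window, at 73880785-73881084, likewise lies inside a span with its 5′ end at 73896105. The CG counts of these 2 windows are therefore not those of the 5′ ends of the annotated genes.

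Most members are long genes. In the GENCODE M21 annotation of GRCm38, Cntn1 lies on chromosome 15 from 92051165 to 92341967 (+ strand), Nfasc on chromosome 1 from 132564690 to 132741797 (- strand), Chl1 on chromosome 6 from 103510586 to 103750211 (+ strand) and Ncam1 on chromosome 9 from 49502136 to 49798925 (- strand). Cntnap2 spans 2245 kb of chromosome 6, and L1cam, on chromosome X, is the shortest at 42.3 kb. Of the 9 members, 8 (88.9%) span more than 100 kb, against 13% of 16062 genes that passed the filter and have a position, and the median span was 273 kb against 19.2 kb. Exons of Ncam1 share 417 bases with the antisense gene Gm11149, and those of L1cam share 100 bases with Arhgap4. The sources used here do not say whether reads were counted by strand, and the Ncam1 and L1cam values may include reads of those neighbours.

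The sort markers followed the labels. Prom1, which encodes CD133, lay at 116 to 182 CPM in the 6 libraries sorted on CD133 and at 39.3 to 58.1 CPM in the Nestin+ libraries. Nes, which encodes Nestin, lay at 157 to 212 CPM in the 6 libraries sorted on Nestin and at 39.5 to 57.3 CPM in the CD133+ libraries. In the steps between low values 1 read was worth 0.0286 to 0.0344 CPM, and 3 reads correspond to between 0.0857 and 0.103 CPM, a floor that covers counting error only. Listed genes added up to 65.9% of the CPM total in CD133+Nestin+ replicate 2 and to between 70.4% and 87.6% in the other libraries. That library stood apart from its group: across genes its log2 values correlated with those of the other CD133+Nestin+ libraries at r = 0.839 and 0.896, against 0.951 between those 2, with genes that are not independent replicates.

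The comparison of Nestin+ with CD133+ cells asked how the 2 single-marker sorts differ. All 9 members had higher means in Nestin+ cells, and the 2 that passed the test were Cntn1, at 20.0 times its CD133+ mean, and Nfasc, at 4.15 times. Chl1, L1cam, Ncam1, Nrcam and Alcam passed when sorts of the same number were compared with each other, which made 7 of 9, while Ncam2 and Cntnap2 did not pass in either fit. No member was called lower. The test was limma on log2(CPM + 1) with Benjamini-Hochberg adjustment over 16143 genes at 0.05, by which 2.45% of all genes were called higher and 9.42% lower; with the sort number as a block, 6.06% were called higher.

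**Figure D1:**
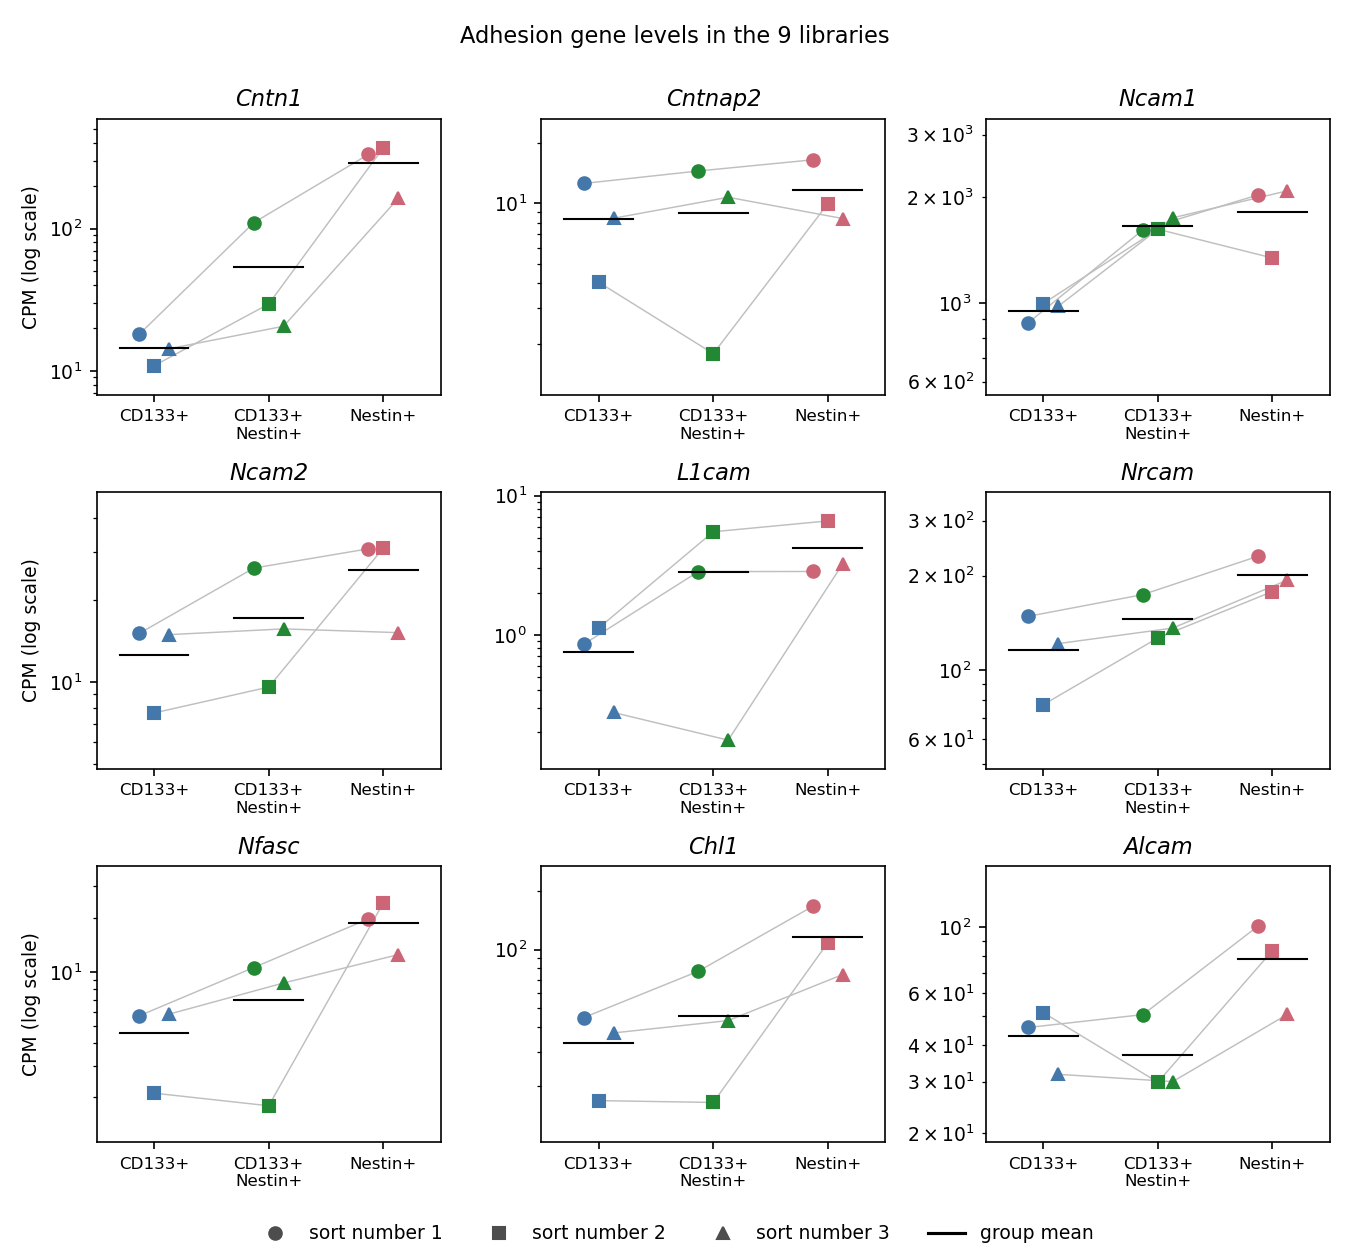
Level of each of the 9 members in CPM on a log axis, 1 panel per gene, in CD133+, CD133+Nestin+ and Nestin+ libraries. Symbols give the sort number, grey lines join libraries of the same number and black bars are group means (n = 3). The Cntn1 panel shows 10.9 to 18.1 CPM in CD133+ and 163 to 370 CPM in Nestin+ libraries, and the Cntnap2 panel shows groups that overlap.

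Among the contactins and their associated protein, Cntn1 passed the test and Cntnap2 did not. Cntn1, a contactin of neurons and oligodendrocyte-lineage cells, measured 18.1, 10.9 and 14.3 CPM in CD133+ replicates 1, 2 and 3 and 332, 370 and 163 CPM in Nestin+ replicates 1, 2 and 3. The lowest Nestin+ library stood far above the highest CD133+ library. The log2 difference was 4.17 ± 0.54 (SE), with a limma adjusted p of 0.000666, and within sorts 1, 2 and 3 the Nestin+ library held 18.4, 34.0 and 11.4 times the CPM of its CD133+ counterpart. Cntn1 passed the test in each of the 9 refits with 1 library removed, with adjusted p between 2.89e-05 and 0.00601.

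Cntnap2, which encodes Caspr2, a neurexin-like partner of contactins at potassium channel clusters of axons, measured 12.5, 4.05 and 8.42 CPM in CD133+ and 16.4, 9.94 and 8.39 CPM in Nestin+ replicates 1, 2 and 3. The groups overlapped, and in sort 3 the values differed by less than 1% (a ratio of 0.996). Its log2 difference of 0.49 ± 0.61 (SE) did not pass (limma adjusted p = 0.728, and 0.457 with the block).

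Ncam1, the neural cell adhesion molecule itself, was the most abundant member. It measured 882, 998 and 980 CPM in CD133+ and 2024, 1343 and 2081 CPM in Nestin+ replicates 1, 2 and 3. The groups did not overlap, although Nestin+ replicate 2 lay much nearer to the CD133+ libraries than the other two did. The log2 difference of 0.90 ± 0.29 (SE) had a limma adjusted p of 0.0676, and of 0.0123 with the block. Without Nestin+ replicate 2 the adjusted p was 0.0448.

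Ncam2, a relative best known from olfactory axons, measured 15.1, 7.69 and 14.9 CPM in CD133+ and 30.8, 31.0 and 15.2 CPM in Nestin+ replicates 1, 2 and 3. All Nestin+ libraries were above the CD133+ libraries, but Nestin+ replicate 3 by a ratio of only 1.02 to its counterpart in the same sort. The log2 difference was 0.96 ± 0.42 (SE), with limma adjusted p of 0.198, and 0.0915 with the block.

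Of the 4 L1 family genes, Nfasc passed the test. Nfasc encodes neurofascin, which gathers channels at axon initial segments and nodes and, in glia, joins the paranodal contact with axonal contactin. It measured 5.68, 2.10 and 5.80 CPM in CD133+ and 19.7, 24.2 and 12.5 CPM in Nestin+ replicates 1, 2 and 3, with no overlap. The log2 difference of 1.88 ± 0.54 (SE) had a limma adjusted p of 0.0469, and of 0.0202 with the block. This call was close to the threshold: it was lost in 7 of 9 refits with 1 library removed, in all 3 without a CD133+ library, all 3 without a Nestin+ library and that without CD133+Nestin+ replicate 3, with adjusted p between 0.058 and 0.215.

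Chl1, the close homologue of L1, measured 44.9, 16.9 and 37.4 CPM in CD133+ and 167, 108 and 74.5 CPM in Nestin+ replicates 1, 2 and 3. Every Nestin+ library was above every CD133+ library, and the log2 difference of 1.82 ± 0.54 (SE) fell just short of the threshold with a limma adjusted p of 0.0509. With the block the adjusted p was 0.00487. It was 0.0178 without CD133+Nestin+ replicate 1 and 0.0126 without CD133+Nestin+ replicate 2, which enter this comparison through the shared estimate of the spread.

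Nrcam, an L1 family molecule of axons and nodes, measured 148, 77.4 and 121 CPM in CD133+ and 230, 178 and 193 CPM in Nestin+ replicates 1, 2 and 3. The groups did not overlap, and the log2 difference was 0.83 ± 0.28 (SE), with limma adjusted p of 0.0899, and 0.0115 with the block.

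L1cam, the founding member of that family, was near the lower end of detection. It measured 0.856, 1.12 and 0.277 CPM in CD133+ and 2.85, 6.58 and 3.24 CPM in Nestin+ replicates 1, 2 and 3, again with no overlap. Its ratio of means was 5.63, while the log2(CPM + 1) difference was 1.54 ± 0.56 (SE), since the added 1 understates the change of a low gene. The limma adjusted p was 0.112, and 0.0222 with the block. It was 0.0424 without CD133+Nestin+ replicate 2 and 0.0331 without CD133+Nestin+ replicate 3.

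Alcam, also called CD166, a molecule of axon bundling and a ligand of the lymphocyte receptor CD6, measured 45.8, 51.4 and 31.8 CPM in CD133+ and 101, 83.5 and 50.7 CPM in Nestin+ replicates 1, 2 and 3. Nestin+ replicate 3 lay just below the highest CD133+ library, so the groups overlapped, but within each sort the Nestin+ library was higher, by ratios of 2.20, 1.62 and 1.6. The log2 difference was 0.82 ± 0.33 (SE), with limma adjusted p of 0.149, and 0.0269 with the block.

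Counted together, every Nestin+ library was above every CD133+ library for 7 of the 9 members, a pattern shown by 11.8% of all genes tested. In each of the 3 sorts the Nestin+ library was higher for 8 members, and in 2 of 3 for Cntnap2. The share of all genes with that pattern within sorts was not computed. The median log2 difference was 0.96 over the members and -0.02 over all 16143 genes, of which 48.7% were above 0. The members were chosen with earlier results of these data known, so the values for all genes are a description and not a test. Centring each library on its median moved the median of all genes to 0.12 and quantile normalization to 0.13, and all 9 members stayed above 0 under both. With those scalings 4 members passed, Cntn1, Nfasc and Chl1 under both together with Ncam1 under centring and Nrcam under quantile normalization. The added alternative that used only the libraries numbered 2 and 3 called Cntn1 and Chl1, and gave Nfasc an adjusted p of 0.0759. The share of all genes called in that alternative is not given here.

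**Figure D2:**
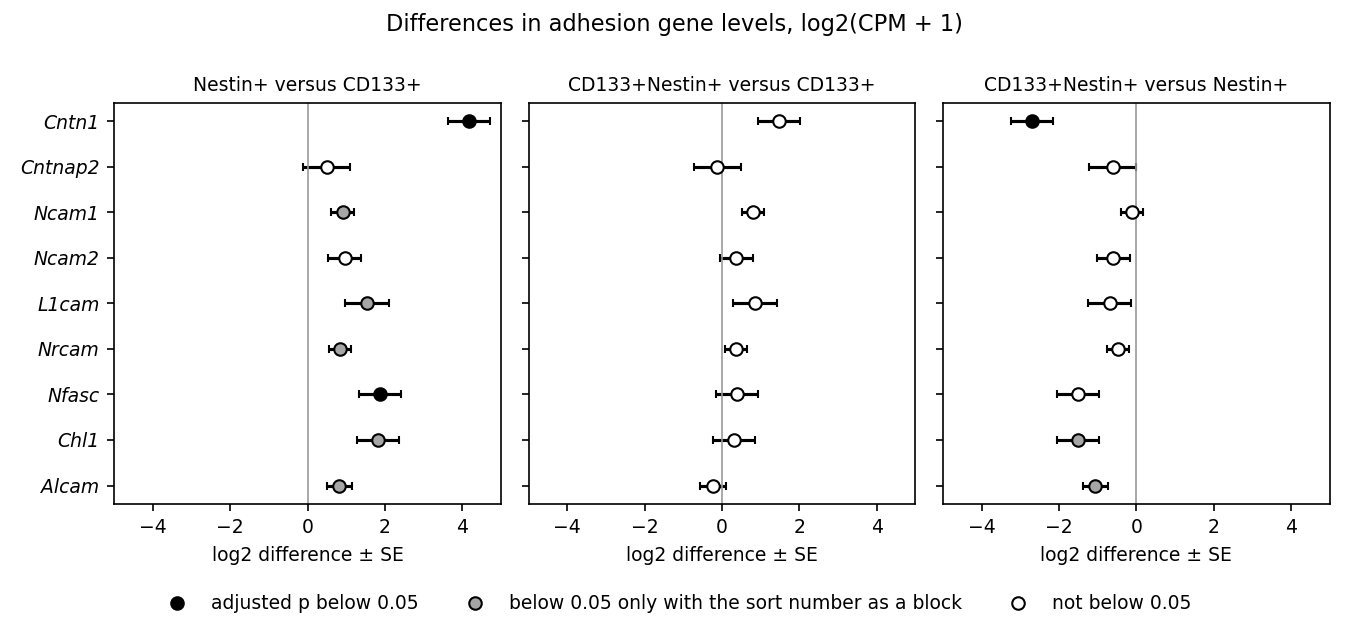
Log2(CPM + 1) differences of the 9 members with their standard errors in the 3 comparisons. Black points passed the limma test at adjusted p below 0.05, grey points passed only with the sort number as a block and white points passed in neither fit. All 9 points lie above 0 for Nestin+ versus CD133+ and all 9 lie below 0 for CD133+Nestin+ versus Nestin+. Of all genes, 48.7% were above 0 in the former comparison and 46.4% in the latter.

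The CD133+Nestin+ cells, positive for both markers, were next set against CD133+ cells. No member passed the test, against 0.297% of all genes called higher and 2.12% called lower, and none passed with the block. At an unadjusted limma p below 0.05, 2 members were higher, Cntn1 (p = 0.0202) and Ncam1 (p = 0.0174), and 0 of the 9 had, in the authors' deposited table, a false discovery rate below 0.05. Cntn1 and Ncam1 each had every CD133+Nestin+ library above every CD133+ library, as had 6.56% of all genes.

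Cntn1 measured 110, 29.5 and 20.6 CPM in CD133+Nestin+ replicates 1, 2 and 3, so replicate 1 was 5.35 times replicate 3. The log2 difference from CD133+ was 1.47 ± 0.54 (SE), with limma adjusted p of 0.262, and 0.0697 with the block. Leaving out CD133+Nestin+ replicate 1 reduced it to 0.76. With the block and without CD133+Nestin+ replicate 2, an added alternative, it was 1.72 with an adjusted p of 0.0472.

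Ncam1 was the steadiest member in this comparison. Its 3 CD133+Nestin+ libraries measured 1614, 1620 and 1746 CPM, close to each other and well above the CD133+ libraries. The log2 difference was 0.80 ± 0.29 (SE), with limma adjusted p of 0.243, and 0.0575 with the block.

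The other members overlapped between these groups. In CD133+Nestin+ replicates 1, 2 and 3, Chl1 measured 77.4, 16.5 and 43.3 CPM, Nfasc 10.6, 1.79 and 8.66 CPM, and Cntnap2 14.4, 1.79 and 10.7 CPM. Replicate 2 was the lowest for all 3 of these genes, and also for Ncam2, at 26.2, 9.58 and 15.7 CPM, and Nrcam, at 174, 126 and 136 CPM. L1cam went another way, with 2.85 and 5.50 CPM in replicates 1 and 2 and 0.175 CPM in replicate 3, and Alcam measured 50.6, 29.9 and 30.0 CPM. The log2 differences from CD133+ were 0.85 for L1cam, 0.38 for Nfasc, 0.37 for Ncam2, 0.36 for Nrcam, 0.32 for Chl1, -0.12 for Cntnap2 and -0.23 for Alcam, with limma adjusted p from 0.596 to 0.953. The direction was not stable for Cntnap2, which was 0.011 under median centring and 0.0593 under quantile normalization.

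Set against Nestin+ cells, the CD133+Nestin+ cells had lower means of all 9 members, and only Cntn1 passed the test. The median log2 difference was -0.69 over the members and -0.04 over all genes, of which 46.4% were above 0. The Nestin+ libraries also enter the comparison with CD133+ cells, so the 2 results are not independent. The Cntn1 log2 difference was -2.70 ± 0.54 (SE), with limma adjusted p of 0.0213, and 0.00403 with the block. Of all genes, 0.254% were called lower and 2.87% higher. With the block Chl1 (-1.50, adjusted p = 0.0298) and Alcam (-1.06, adjusted p = 0.0209) passed as well, against 1.12% of all genes. The Cntn1 call was lost in 4 of 9 refits with 1 library removed: adjusted p was 0.0704 without CD133+Nestin+ replicate 2, 0.0979 without replicate 3 of that group, 0.0799 without Nestin+ replicate 1 and 0.124 without Nestin+ replicate 2.

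Every CD133+Nestin+ library lay below every Nestin+ library for Cntn1, Nfasc, Nrcam and Alcam, 4 of the 9 members, as it did for 6.21% of all genes. For Alcam the margin was narrow, with 50.6 CPM in the highest CD133+Nestin+ library and 50.7 CPM in the lowest Nestin+ library. Nfasc differed by -1.50 ± 0.54 (limma adjusted p = 0.224, and 0.103 with the block) and Nrcam by -0.47 ± 0.28 (0.562, and 0.192 with the block). Ncam1 was nearly level between these groups on the log2 scale, at -0.10 ± 0.29 (limma adjusted p = 0.937). The differences of L1cam, Cntnap2 and Ncam2 were -0.69, -0.61 and -0.59, none of which passed.

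Over all 3 groups at once, limma's F test called 1 of the 9 members, Cntn1 (adjusted p = 0.00182), against 9.50% of all genes. With the block it called 6, namely Cntn1, Chl1, Alcam, Ncam1, Nrcam and Nfasc, against 16.5% of all genes. The count was 3 without CD133+Nestin+ replicate 1 and 3 without CD133+Nestin+ replicate 2.

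The authors' deposited table gave the same leading member. For Nestin+ against CD133+ it lists Cntn1 with a ratio of 20.0 and a false discovery rate of 0.00153, the only 1 of the 9 below 0.05. In the authors' deposited table Chl1 follows at a false discovery rate of 0.0755 and Nfasc at 0.0894. For Nestin+ against CD133+Nestin+ the authors' deposited table again has Cntn1 alone below 0.05, with a ratio of 5.40 and a false discovery rate of 0.0331. The share of all genes below 0.05 in that table was not computed for any comparison.

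Levels can be set against each other between genes only per length, and CPM was therefore divided by the length of the merged exons of each gene. Ncam1 led in each group by a wide margin, with means of 110 ± 7.26 CPM per kb for CD133+, 192 ± 8.56 for CD133+Nestin+ and 210 ± 47.4 for Nestin+ cells (mean ± SD, n = 3). Cntn1 changed its place most. It held rank 5 of 9 in CD133+ cells at 1.53 ± 0.383 CPM per kb, rank 3 in CD133+Nestin+ cells at 5.66 ± 5.23 and rank 2 in Nestin+ cells at 30.6 ± 11.7.

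In Nestin+ cells the libraries of Cntn1 overlapped neither those of Ncam1 above it nor those of Nrcam below it, at 15.0 ± 2.02 CPM per kb. Below these came Alcam at 11 CPM per kb and Chl1 at 9.48, whose libraries overlapped each other, and then, without overlap with Chl1, Ncam2 at 2.26. Nfasc at 1.33, Cntnap2 at 1.13 and L1cam at 0.575 CPM per kb formed the lower end, each overlapping its neighbour. In CD133+ cells the order was Ncam1, Nrcam, Alcam, Chl1, Cntn1, Ncam2, Cntnap2, Nfasc and L1cam, and neighbours were separate only between Ncam1 and Nrcam and between Alcam and Chl1. In CD133+Nestin+ cells only Ncam1 was separate from its neighbour.

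**Figure D3:**
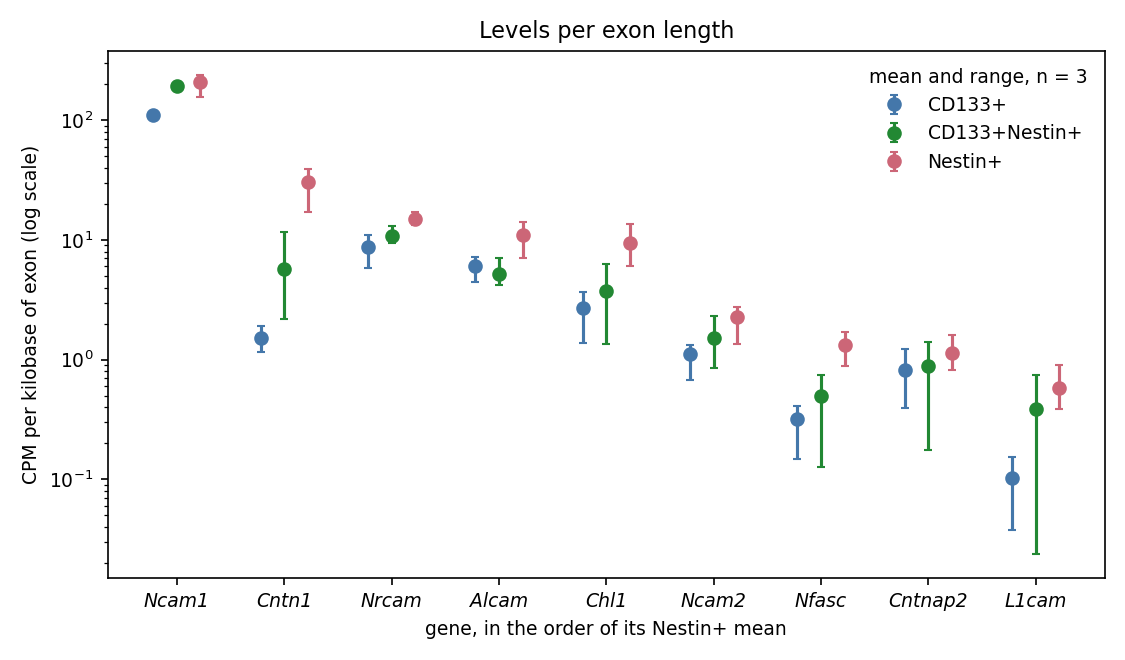
Mean level of each member in CPM per kilobase of exon on a log axis, with bars from the lowest to the highest of 3 libraries, for the 3 groups. Ncam1 is highest in each group, at 110 to 210 CPM per kb, and Cntn1 moves from 1.53 CPM per kb in CD133+ to 30.6 in Nestin+ cells.

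As a share of the summed per-length level of the 9 members, Ncam1 made up 66.1% to 90.3% of each library. The Cntn1 share was 0.873% to 1.5% in CD133+ libraries and 5.99% to 16.7% in Nestin+ libraries, with no overlap, and 0.973% to 5.09% in CD133+Nestin+ libraries. The Nrcam share, by contrast, was 4.38% to 8.68% in CD133+ and 5.02% to 5.68% in Nestin+ libraries, which overlap.

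Genes with the pattern most like each member over the 9 libraries were found by the mean absolute difference of standardized log2 values among 9403 genes, a description in which all points share the same libraries. Qpct, which encodes glutaminyl-peptide cyclotransferase, was nearest to Cntn1 at 0.082, and Omg, the oligodendrocyte myelin glycoprotein gene, followed at 0.123, where the median candidate was at 1.13. Mean Qpct was 8.71 CPM for CD133+, 27.3 CPM for CD133+Nestin+ and 97.0 CPM for Nestin+ cells, and mean Omg was 8.39, 17.8 and 62.1 CPM in that order. The nearest genes to Nfasc were Add2 (0.113) and Pkia (0.144), to Chl1 Mageh1 (0.117) and Trib2 (0.12), and to Nrcam Sez6l (0.102) and Sdc3 (0.103). Those of Ncam2 were Dgkb (0.0838) and Tubb4a (0.17), of Cntnap2 Fbxl18 (0.0738) and Trappc9 (0.134), of Alcam Grin3a (0.252) and Peli2 (0.256), of L1cam Sdk2 (0.257) and Rhobtb2 (0.294), and of Ncam1 Sulf2 (0.274) and Slc12a4 (0.296). Among the members themselves Nfasc and Chl1 were most alike, at 0.195, and L1cam and Cntnap2 least, at 1.22.

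Other genes of the immunoglobulin superfamily, other contactin-associated proteins and partners of the members were taken in 8 lists of 97 distinct genes, of which 76 were in the table and tested. In Nestin+ against CD133+ cells 14 were called higher and 8 lower, where 2.45% and 9.42% of all genes were. With the block these counts were 24 and 12, against 6.06% and 13.1% of all genes. In CD133+Nestin+ against CD133+ cells 0 were called higher and 5 lower, against 0.297% and 2.12% of all genes, and with the block 4 and 8, against 1.12% and 3.69%. In CD133+Nestin+ against Nestin+ cells 2 were called higher and 2 lower, against 2.87% and 0.254% of all genes, and with the block 4 and 7, against 4.97% and 1.12%. Genes named below for a call with the block alone were named after their values were seen.

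In the IgLON family, lipid-anchored molecules of neurites, 2 of 5 genes rose in Nestin+ cells: Ntm, by 1.19 ± 0.27 on the log2 scale (limma adjusted p = 0.0149), and Opcml, by 1.61 ± 0.37 (0.0158). Of the 9 refits with 1 library removed, 6 kept each of these calls, and both were lost without CD133+ replicate 2 or without Nestin+ replicate 2. With the block 3 of 5 passed, Lsamp being the other (0.96, adjusted p = 0.0255). None of the 8 SynCAM and nectin genes passed, and 2 did with the block. Of the other contactins and contactin-associated proteins only Cntn4 and Cntnap4 were in the table, at log2 differences of 1.02 and 0.69, and neither passed; with the block Cntn4 passed (adjusted p = 0.0443).

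Among 15 further immunoglobulin adhesion genes of neural cells, 3 rose in Nestin+ cells. Dscam, a self-avoidance molecule of neurites, went from 0.956 ± 0.111 to 16.8 ± 4.88 CPM (mean ± SD, n = 3), its relative Dscaml1 from 0.84 ± 0.452 to 9.80 ± 3.04 CPM, and Mdga2, which masks synaptic neuroligins, from 7.22 ± 0.679 to 31.5 ± 11.1 CPM. Their log2 differences were 3.15, 2.55 and 1.93, and all 3 calls held in each of the 9 fits without 1 library. Bsg, basigin, a gene of this list that was named after its values were seen, fell by 1.79 (limma adjusted p = 0.00787). Dscam and Mdga2 were also lower in CD133+Nestin+ than in Nestin+ cells, by log2 differences of -2.62 and -1.36, calls that held in 1 of those 9 fits, the one without CD133+Nestin+ replicate 1. With the block 4 genes of this list were higher and 1 lower in Nestin+ than in CD133+ cells, and 3 were lower in CD133+Nestin+ than in Nestin+ cells.

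Of 8 immunoglobulin adhesion genes of vessels and blood cells, 4 were called lower in Nestin+ than in CD133+ cells and none higher. With the block 4 were called lower and 2 higher, Vcam1, an adhesion receptor for integrins (1.21 on the log2 scale, adjusted p = 0.00751), and Jam2, a junction molecule (0.70, adjusted p = 0.0179). Pecam1, the endothelial junction molecule CD31, fell by 5.42 on the log2 scale. Esam, another endothelial junction gene, fell by 6.25, and F11r, which encodes JAM-A, fell by 3.24. The same number of genes, 4 of 8, was called lower in CD133+Nestin+ than in CD133+ cells, with log2 differences of -4.31 for Pecam1, -5.08 for Esam and -2.97 for Icam1. In CD133+Nestin+ against Nestin+ cells 1 of the 8 was called higher and 0 lower. That gene was F11r, at 1.45 on the log2 scale (limma adjusted p = 0.0208), a call that held in 6 of 9 fits without 1 library. The summed level of the 4 endothelial markers in the table, of which Pecam1 is one, was 330 to 648 CPM in CD133+, 26.9 to 35.6 CPM in CD133+Nestin+ and 14.5 to 24.7 CPM in Nestin+ libraries, and its part in these differences was not tested.

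**Figure D4:**
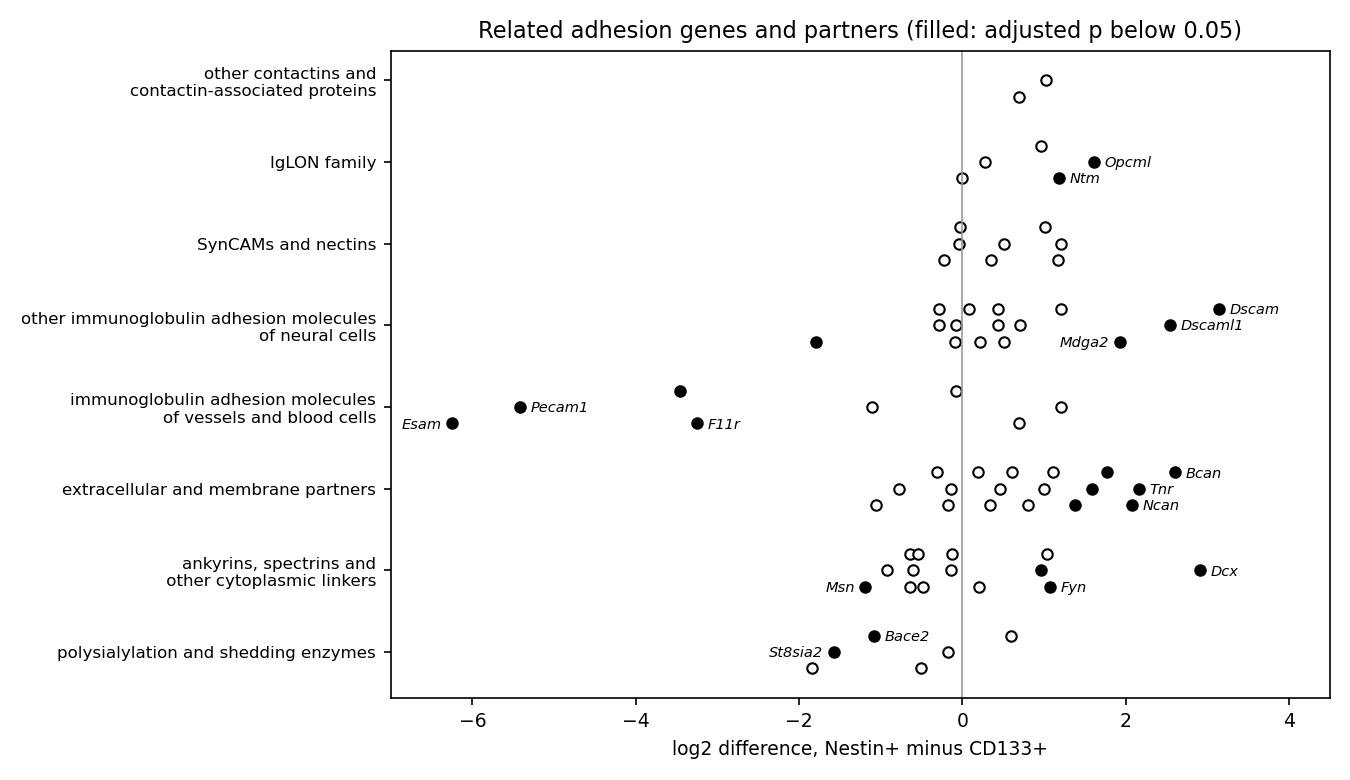
Log2(CPM + 1) differences of 76 related genes between Nestin+ and CD133+ cells, 1 row per list, with points spread vertically only to keep them apart. Filled points passed the limma test at adjusted p below 0.05, 14 to the right and 8 to the left. The vessel list has 4 filled points on the left, and the list of partners has 6 on the right.

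Of 18 extracellular and membrane partners of the members, 6 were called higher in Nestin+ than in CD133+ cells and none lower. With the block 8 were called higher and 1 lower, Nrp1, the semaphorin coreceptor neuropilin 1 (-1.05, adjusted p = 0.0151). Bcan, brevican, a matrix proteoglycan, went from 117 ± 57.6 to 643 ± 65.1 CPM, and Ncan, neurocan, which binds NCAM and L1, from 1611 ± 751 to 6468 ± 2239 CPM (mean ± SD, n = 3). Tnr, tenascin-R, a matrix ligand of contactin 1, went from 4.76 ± 1.07 to 26.4 ± 11.4 CPM. The log2 differences were 2.60 for Bcan, 2.08 for Ncan and 2.16 for Tnr, with limma adjusted p of 0.00235, 0.0147 and 0.0258.

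The Bcan call held in 9 of 9 fits without 1 library, that of Ncan in 6 and that of Tnr in 4. Over those fits the number of partners called higher ranged from 1 to 6. The remaining 3, named after their values were seen, were Itgav at 1.38, Vcan at 1.59 and Ptprz1, the receptor phosphatase that binds contactin 1, at 1.77 (adjusted p = 0.0465), each of which held in 4 of the 9 fits. In CD133+Nestin+ cells none of the 18 passed against either other group. With the block 3 were called higher and 1 lower than in CD133+ cells, the lower being Nrp1 (-1.06, adjusted p = 0.0417). Against Nestin+ cells, also with the block, Gpr37 was called higher (1.01, adjusted p = 0.02) and Itgav lower (-1.12, adjusted p = 0.0214).

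Cytoplasmic linkers were mixed. Of 14 genes, 3 rose in Nestin+ cells: Dcx, doublecortin, a microtubule protein of migrating neuroblasts that binds neurofascin, by 2.91 on the log2 scale, the kinase gene Fyn, which acts downstream of contactin 1 and NCAM, by 1.07, and Ank2, ankyrin B, by 0.97. Msn, moesin, a linker of membrane and actin, fell by 1.19. The Dcx and Msn calls held in 9 of 9 fits without 1 library, that of Fyn in 4 and that of Ank2, named after its values were seen, in 2. With the block 4 were called higher, Dlg4 among them (1.04, adjusted p = 0.027), and 3 lower. The lower ones were Msn, Ank3, the ankyrin G gene of initial segments and nodes (-0.92, adjusted p = 0.0131), and Sdcbp, syntenin (-0.64, adjusted p = 0.0432), so Ank2 and Ank3 had opposite signs. The median over the 14 was -0.31, and the spectrins Sptbn1 and Sptan1, at -0.48 and -0.54, did not pass.

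Of 6 genes for polysialylation and shedding enzymes, 2 were called lower in Nestin+ than in CD133+ cells and none higher, and 3 were lower with the block. St8sia2, the polysialyltransferase of early brain development, averaged 93.6 ± 16.6 CPM for CD133+, 55.1 ± 7.87 CPM for CD133+Nestin+ and 30.8 ± 5.36 CPM for Nestin+ cells (mean ± SD, n = 3). It fell by 1.57 ± 0.24 on the log2 scale from CD133+ to Nestin+ cells (limma adjusted p = 0.00172), a call that held in each of the 9 fits without 1 library. St8sia4, the other polysialyltransferase, averaged 13.9 ± 6.67, 2.27 ± 1.97 and 2.88 ± 0.869 CPM in the same order and differed by -1.84 ± 0.58 (adjusted p = 0.0667, and 0.0482 with the block). Among the shedding proteases Bace2 fell by 1.08 (adjusted p = 0.03), held in 5 of the 9 fits, and was higher in CD133+Nestin+ than in Nestin+ cells by 1.30, held in 3. The other proteases, Adam10, Adam17 and Bace1, at -0.17, -0.50 and 0.60, did not pass.

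Markers of cell types that these sorts could hold moved with the groups. In a bulk library fewer cells of a type and less RNA per cell cannot be told apart. In Nestin+ against CD133+ cells 2.45% of all genes were called higher and 9.42% lower, and 6.06% and 13.1% with the block. Of 9 oligodendrocyte precursor markers in the table (of 10 listed), 6 were called higher there, and 8 with the block, with a median log2 difference of 2.40. Their summed level was 88.2 to 172 CPM in CD133+, 140 to 542 CPM in CD133+Nestin+ and 707 to 1299 CPM in Nestin+ libraries. Sox10 was the lowest of them, at 0.0987 CPM in 1 library, which is at the level of 3 reads.

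The summed oligodendrocyte precursor level and Cntn1 were both highest in the 3 Nestin+ libraries, and the CD133+Nestin+ library next to them in both, replicate 1, had 542 CPM of the markers and 110 CPM of Cntn1. Of 11 neuronal lineage markers tested (15 listed, 13 in the table), 5 were called higher in Nestin+ than in CD133+ cells, Dcx among them, and 8 with the block. The sums over the 13 were 204 to 281 CPM in CD133+, 287 to 370 CPM in CD133+Nestin+ and 475 to 608 CPM in Nestin+ libraries. Dlx2 was at the level of about 1 read, 0.0332 CPM, in its lowest library. The part of these markers in the differences of Cntn1, Nfasc and the other members was not tested.

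Markers of neural stem cells, radial glia and tanycytes, 12 genes, summed to 2024 to 6346 CPM in CD133+, 3586 to 8907 CPM in CD133+Nestin+ and 7624 to 13229 CPM in Nestin+ libraries, so the single-marker groups did not overlap. Of these 12 genes 3 were called higher and 1 lower in Nestin+ than in CD133+ cells, and 6 and 1 with the block. The 9 astrocyte markers summed to 1132 to 3068, 1530 to 3561 and 2360 to 4720 CPM in the same order of groups, which overlap, with 2 called higher and 0 lower, and 4 and 1 with the block. Of 4 Schwann and neural crest markers in the table (of 7 listed) 1 was called higher, and 2 with the block, with sums of 4.96 to 8.19, 10.8 to 17.7 and 33.8 to 47.6 CPM. Sox10 stands in this list too, and the part of these 3 lists was not tested.

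Summed markers of other cell types were lower in Nestin+ than in CD133+ libraries, as the endothelial ones were. The 10 ependymal markers were all called lower in Nestin+ than in CD133+ cells and summed to 1573 to 3201 CPM in CD133+, 1505 to 1800 CPM in CD133+Nestin+ and 266 to 340 CPM in Nestin+ libraries. The 9 microglia and macrophage markers in the table were all called lower as well, with sums of 907 to 2630 CPM in CD133+, 38.6 to 309 CPM in CD133+Nestin+ and 35.4 to 102 CPM in Nestin+ libraries. Of 6 mural, fibroblast and meningeal markers in the table (of 10 listed) 5 were called lower, with sums of 724 to 1453, 97.8 to 167 and 63.9 to 96.1 CPM in CD133+, CD133+Nestin+ and Nestin+ libraries. The 5 erythroid markers in the table were all called lower, with sums of 783 to 1537, 60.6 to 118 and 24.4 to 344 CPM in that order, the 344 CPM being in Nestin+ replicate 2. The part of these lists in the member differences was not tested either.

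**Figure D5:**
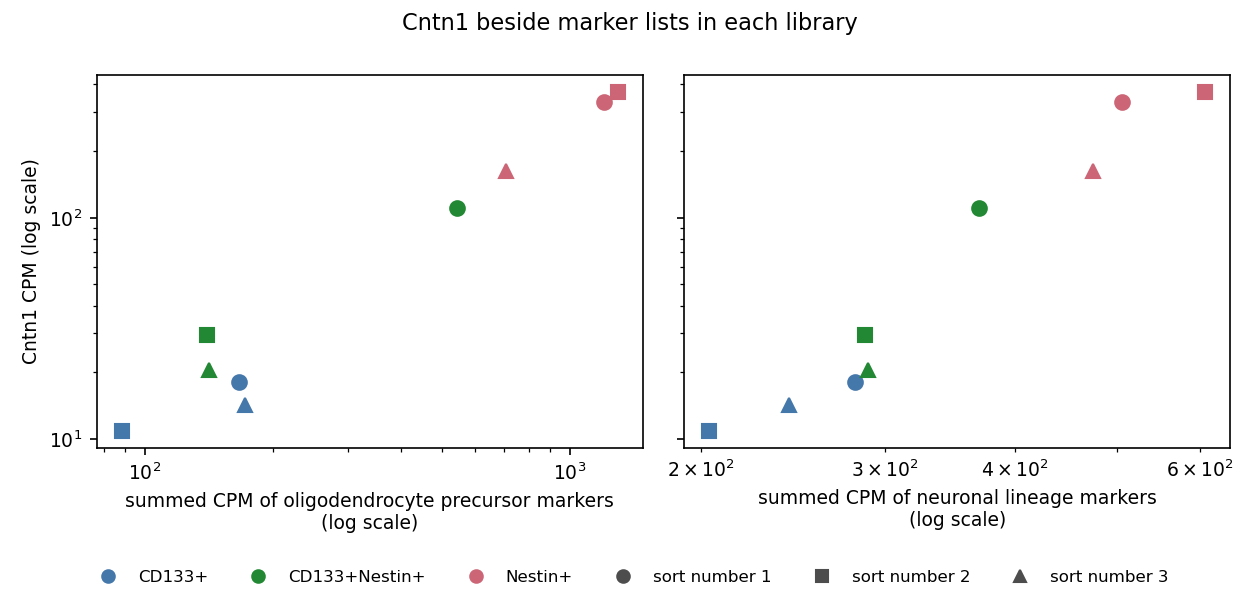
Cntn1 in CPM against the summed CPM of oligodendrocyte precursor markers (left) and neuronal lineage markers (right) in the 9 libraries, on log axes, with colours for the groups and symbols for the sort numbers. The 3 Nestin+ libraries lie at the upper right of both panels, and CD133+Nestin+ replicate 1, at 110 CPM of Cntn1 and 542 CPM of precursor markers, lies nearest to them.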

How the data were processed

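RNA from 9 libraries was sequenced by the authors, and the groups were taken from the labels. The mm10 build, STAR 2.5.3a, Partek 8.0, bcl2fastq and limma are named in the submitters' processing notes. The counting method and annotation are not given in the sources used here. The unit of the table of normalized values that the authors deposited is not stated: it was read from the values as CPM with an offset of 0.0001, with steps of 0.0286 to 0.0344 CPM per read. Only 32.1% to 51.1% of low values fell on whole steps, within 0.02 reads, so no count test was run. A second table deposited by the authors gives a p-value, a false discovery rate and a ratio of means per comparison, per the file headers.

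Values were taken as log2(CPM + 1), genes with at least 1 CPM in at least 3 libraries were kept, and all 3 groups entered 1 fit in limma 3.58.1 (R 4.3.3; trended, robust eBayes; Benjamini-Hochberg threshold 0.05). The fit was run on simulated data with known changes, independent noise in each library and no effect of the sort number. The outcome of that run is not given here. The sort number was a block in an alternative fit. Deviations from group means of libraries with the same number correlated at 0.204 to 0.73 in all 9 pairs, and those of different numbers at -0.526 to 0.314 in 18. These ranges overlap. Pairs numbered 1 had 0.582 to 0.73, but those numbered 3 had 0.204 to 0.224, below CD133+Nestin+ replicate 2 with Nestin+ replicate 3 at 0.314. By these data the numbers pair the samples in part, most clearly for sort 1. The labels give all 3 groups the same sort numbers but do not say what libraries of equal number share, so the main fit had no block. If equal numbers mark a shared sort, the fit with the block is the one that follows the design. Promoters come from RefSeq on GRCm38.p6, with 8 of 9 members matched, and exon lengths from GENCODE M21. Every member is named, with up to 3 called genes of smallest p per list and the 2 genes most alike each member. The members and lists were chosen with earlier results of these data known. Alternatives were other scalings, pseudocounts and filters, the block, and leaving out each library.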

Additional observations from a re-analysis of the deposited data

How the results depend on the processing

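Each group has 3 libraries, and L1cam was the member nearest to the floor of 3 reads. Of 243 values refitted without 1 library, 218 kept their direction and side of the threshold, as did 185 of 213 values under the other settings. Members called in Nestin+ against CD133+ cells numbered 2; the count was 4 under median centring, 4 under quantile normalization, 1 with a pseudocount of 0.1 (Nfasc adjusted p = 0.07), 1 without a filter (Nfasc 0.0591), 3 with a filter of 5 CPM (Chl1 0.0465) and 1 to 4 without 1 library. The replicate block, which follows the sort number, gave 7 members there, 3 instead of 1 in CD133+Nestin+ against Nestin+ cells and 6 instead of 1 in the F test. It changed no other count of members. Leaving out 1 library gave 0 to 0 members in CD133+Nestin+ against CD133+ cells, 0 to 2 against Nestin+ cells and 1 to 3 in the F test. With the block and without CD133+Nestin+ replicate 2, an alternative chosen after seeing the data like that restricted to libraries 2 and 3, the 4 counts were 8, 1, 2 and 7. The shares of all genes called in these 2 alternatives are not given here, so their counts of members have no baseline. Reversals concerned differences that passed no test. Cntnap2 in CD133+Nestin+ against CD133+ cells became 0.011 under median centring, 0.0593 under quantile normalization, 0.41 with the block and without CD133+Nestin+ replicate 2, and -0.60 to 0.64 without 1 library. In that comparison Chl1 ranged from -0.18 to 0.90 without 1 library and Nfasc from -0.0042 to 1.02. In CD133+Nestin+ against Nestin+ cells Cntnap2 ranged from -1.09 to 0.15, L1cam from -1.23 to 0.0049 and Ncam1 from -0.31 to 0.0087, and Ncam1 was 0.0085 with libraries 2 and 3 only. The cause of these changes was not tested. Over all genes, Nestin+ against CD133+ cells gave 395 higher and 1520 lower calls, 587 and 1300 under median centring, 696 and 1370 under quantile normalization, and 978 and 2116 with the block, and 1043 to 2764 in all without 1 library. CD133+Nestin+ against CD133+ gave 390 calls, 776 with the block and 97 to 472 without 1 library, and against Nestin+ 505, 983 and 173 to 663. The F test called 1534 genes, 2656 with the block and 863 to 2083 without 1 library.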
